A study of Mus musculus with 24 samples.

Results

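The ABC efflux pumps of the kidney are membrane transporters that spend ATP to push drugs, toxins and metabolites out of the cell. The genes described are Abcb1a, Abcb1b, Abcc1, Abcc2, Abcc3, Abcc4, Abcc5, Abcc6 and Abcg2. They were chosen by gene symbol, with earlier results of these data known. All 9 are among the 19399 genes of the table, and all 9 passed the filter on low values.

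RNA was sequenced from kidneys of C57BL/6J mice that were 10 weeks old, with polyA selection and 1 library per mouse. Mice had free access to food and water (6 females, 6 males; below, watered) or had their water taken away for 9 to 11 h (5 females, 7 males; below, deprived). Collection took place within 1 h of midnight, when the mice were 6 h into their active phase, and RNA was made from a snap-frozen part of a kidney. The clock time that the labels give for taking water away does not fully match 9 to 11 h before midnight. Deprived female 5 is deprived by its title and watered by its treatment label, and was kept with the deprived females.

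In the proximal tubule, uptake carriers of the basolateral membrane bring organic anions and cations in from blood, and ABC pumps of the apical brush border export them into the tubular fluid. P-glycoprotein, which mice encode in the gene pair Abcb1a and Abcb1b, BCRP (Abcg2), MRP2 (Abcc2) and MRP4 (Abcc4) are apical pumps there. MRP1 (Abcc1), MRP3 (Abcc3) and MRP6 (Abcc6) belong to the basolateral side of polarized cells, so that they move their substrates towards blood.

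The bases ahead of the RefSeq start are shown for 4 of the 7 members that differed between the watered sexes. Abcb1b and Abcc4 were lower in males, and Abcc2 and Abcg2 were higher. The RefSeq starts of Abcc2 and Abcg2 lie 116 and 10 bases inside the annotated genes, so the ends of these windows lie within them. The sequences are RefSeq's on GRCm38.p6, 250 bases long, 5′ to 3′ on the strand of the gene. They lie at chr5:8797897-8798146 on the plus strand for Abcb1b, chr14:118706220-118706469 on the minus strand for Abcc4, chr19:43782058-43782307 on the plus strand for Abcc2 and chr6:58584283-58584532 on the plus strand for Abcg2, the nearest of its 3 RefSeq windows to the annotated gene start. Capitals mark matches, on either strand, to any of the 7 motifs searched.
Abcb1b: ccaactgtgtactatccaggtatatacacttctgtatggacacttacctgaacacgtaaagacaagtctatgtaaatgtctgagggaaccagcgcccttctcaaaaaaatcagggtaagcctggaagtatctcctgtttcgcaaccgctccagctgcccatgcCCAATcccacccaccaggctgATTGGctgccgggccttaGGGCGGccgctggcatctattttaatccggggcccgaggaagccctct
Abcc4: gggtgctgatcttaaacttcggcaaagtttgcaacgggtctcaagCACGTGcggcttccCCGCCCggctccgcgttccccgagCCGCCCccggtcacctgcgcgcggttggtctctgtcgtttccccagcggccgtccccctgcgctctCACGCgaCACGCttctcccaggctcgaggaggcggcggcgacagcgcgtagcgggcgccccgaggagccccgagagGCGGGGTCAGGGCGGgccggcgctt
Abcc2: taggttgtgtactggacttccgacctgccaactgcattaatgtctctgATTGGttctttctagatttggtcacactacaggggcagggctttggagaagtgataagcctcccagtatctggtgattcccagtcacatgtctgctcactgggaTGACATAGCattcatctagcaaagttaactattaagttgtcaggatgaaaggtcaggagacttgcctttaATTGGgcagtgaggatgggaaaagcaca
Abcg2: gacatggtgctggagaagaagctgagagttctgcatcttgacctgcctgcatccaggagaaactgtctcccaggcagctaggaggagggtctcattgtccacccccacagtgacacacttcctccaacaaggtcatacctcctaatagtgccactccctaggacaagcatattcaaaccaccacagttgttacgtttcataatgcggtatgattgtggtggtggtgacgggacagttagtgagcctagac

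In these letters Abcc4 held 1 antioxidant response element (TGACNNNGC), 2 AHR cores (GCGTG), 1 E-box (CACGTG) and 3 GC boxes (GGGCGG), with no overlap among them. Abcc2 held 1 antioxidant response element and 2 CCAAT boxes (CCAAT), and Abcb1b held 1 GC box and 2 CCAAT boxes. The antioxidant response element of Abcc2 and 1 of its CCAAT boxes lie past the annotated gene start. The Abcg2 window shown held no match to these motifs, to the steroid receptor half-site (AGAACA) or to the HNF1 half-site (GTTAAT). The other Abcg2 windows, at chr6:58596422-58596671 and chr6:58640296-58640545, held 2 and 4 GC boxes and no match to the rest. A second Abcc4 window, at chr14:118676932-118677181 on the minus strand, held 1 antioxidant response element and 1 steroid receptor half-site. The Abcb1a window, not shown, held no match to any motif searched, and its RefSeq start lies 92986 bases from the annotated gene start. For Abcc1 and Abcc3, which also differed between the sexes, the sequences used here hold no window. Of 32851 RefSeq windows of this length, 10.2% held the antioxidant response element, 28.2% the AHR core, 6.02% the E-box, 32.7% the GC box, 33.8% the CCAAT box, 16.1% the steroid receptor half-site and 6.43% the HNF1 half-site. A match describes the letters and not a site in use.

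Libraries held 14411843 to 29398960 reads assigned to genes, and the values given are counts that the authors divided by size factors. Over 1% of the reads came from the unnamed gene ENSMUSG00000119584 in 4 libraries, namely watered female 6 (1.90%), deprived female 1 (1.07%), deprived male 6 (1.29%) and deprived male 7 (2.86%), against 0.268% to 0.850% in the other 20. These 4 libraries are called the high-ENSMUSG00000119584 libraries below. Many pump genes lay outside the range of the group's other libraries in them, so results that move with them are given with and without them. Markers of the proximal tubule, such as Slc34a1 and Lrp2, and of the other segments were detected in every library. The counts cover whole tissue, in which fewer cells of a type and less RNA per cell cannot be told apart.

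Per kilobase of merged exons, watered females had Abcg2 and Abcc2 on top, with 840 ± 42.3 and 798 ± 106 normalized counts per kb (SD, n = 6). Abcc3 followed with 606 ± 143 and Abcc4 with 451 ± 35.2 normalized counts per kb. These top 4 then gave way to Abcc5, the cyclic nucleotide exporter MRP5, at 131 ± 15.3, Abcb1b at 98.7 ± 12.6, Abcb1a at 75.4 ± 5.90, Abcc6 at 68.9 ± 4.21 and Abcc1 at 57.0 ± 5.91 normalized counts per kb. The level of Abcg2 lay above that of Abcc2 in only 3 of 6 libraries, and the ranges of Abcc2 and Abcc3, of Abcc3 and Abcc4, of Abcc5 and Abcb1b, and of Abcb1a and Abcc6 overlapped. The ranges of Abcc4 and Abcc5 did not, Abcc4 being 3.45 times as high.

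Watered males had another order, with Abcc2 at 1277 ± 53.3 and Abcg2 at 1074 ± 59.4 normalized counts per kb (SD, n = 6), and the next gene, Abcc4, far below at 172 ± 14.3. Abcc5 stood at 134 ± 7.39, Abcc6 at 78.1 ± 11.3, Abcc1 at 43.1 ± 3.26, Abcb1a at 26.5 ± 3.92, Abcb1b at 24.1 ± 2.42 and Abcc3 at 13.8 ± 2.50 normalized counts per kb. In males only the neighbours Abcb1a and Abcb1b overlapped, while Abcc2 exceeded Abcg2 in 6 of 6 libraries. Among the 19298 genes with a length, the level per kb of Abcc3 stood at percentile 91.9 in watered females and 29.2 in watered males. That of Abcc2 stood at percentiles 94.1 and 95.9, and that of Abcg2 at 94.4 and 95.3.

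The pumps together reached 3127 ± 175 normalized counts per kb in watered females and 2842 ± 101 in watered males, a sum over genes that hides opposite differences. In females Abcg2, Abcc2, Abcc3 and Abcc4 gave 26.9%, 25.5%, 19.4% and 14.4% of the sum, and in males Abcc2 and Abcg2 gave 44.9% and 37.8%. The sums were 2710 ± 271 in deprived females (n = 5) and 2606 ± 228 in deprived males (n = 7). Lengths matter to this order: with the longest coding transcript in place of merged exons, a choice made after the data were seen, Abcc1 moved from rank 9 to rank 7 in watered females, Abcg2 passed Abcc2 in watered males and Abcc5 passed Abcc4 in both male groups.

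**Figure D1:**
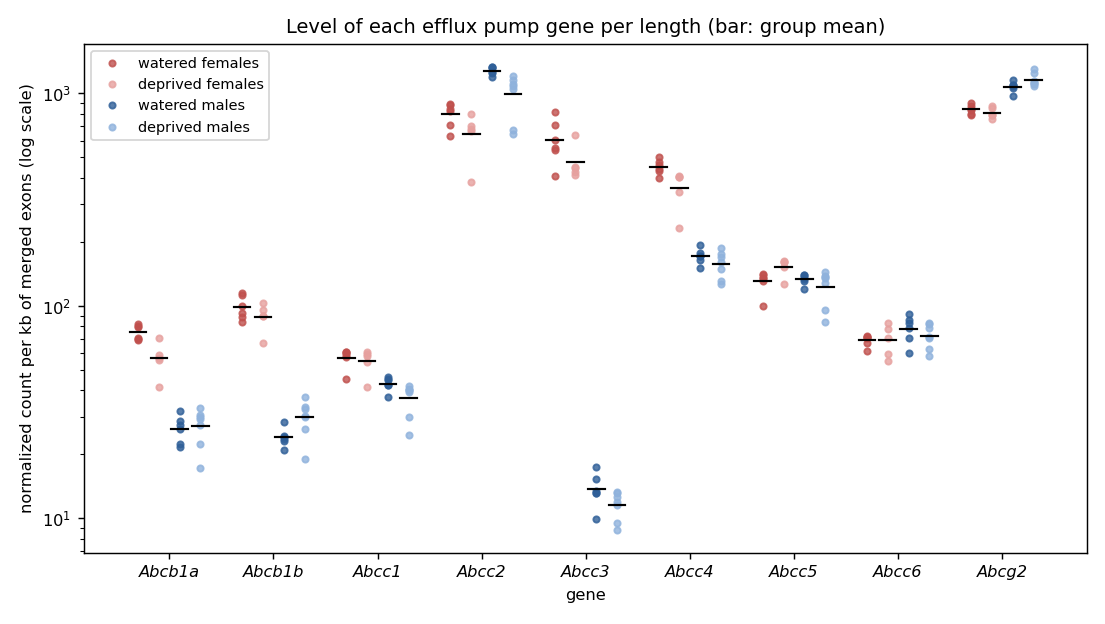
Level of each pump gene in normalized counts per kb of merged exons, on a log axis, for every library (points) in the 4 groups, with bars for group means. Abcc3 lies at 606 in watered females and 13.8 in watered males, while Abcc2 and Abcg2 stay near the top in all groups.

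To ask how males and females differ with water at hand, watered males were compared with watered females. Abcc3, Abcb1b, Abcb1a, Abcc4 and Abcc1 were lower in males, and Abcc2 and Abcg2 were higher. In all 7 of 9 genes passed the test (limma adjusted p below 0.05), 2 higher and 5 lower, where 30.5% of all 17592 genes tested did, 15.9% higher and 14.5% lower. Groups of 6 libraries each did not overlap for 6 genes, against 22.4% of all genes tested. The median log2 difference of the 9 genes was -0.40, and that of all genes -0.02. On recovered reads, edgeR and DESeq2 each called 7 of the 9, and 31% and 29.4% of all genes. Each of the 7 also passed without the 4 high-ENSMUSG00000119584 libraries, where 42.7% of all genes tested did, at differences from -5.38 for Abcc3 to 0.62 for Abcc2.

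Abcc3, the MRP3 exporter of glucuronide conjugates, had the widest gap of the 9. Its normalized count had a lowest, median and highest value of 2334, 3300 and 4679 in watered females (n = 6). In watered males these were 56.8, 76.1 and 99.7 (n = 6). Every male library lay far below every female one, and the log2 difference was -5.43 ± 0.15 (SE, limma adjusted p = 3.84e-20), 43.1-fold lower. In absolute size it lay at percentile 99.9 of all genes tested. The gene lies at chr11:94343295-94392997 on the minus strand (GRCm38, GENCODE M21, also used for the positions below).

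Both P-glycoprotein genes were lower in males. Abcb1b had a lowest, median and highest normalized count of 673, 769 and 915 in watered females and 168, 191 and 227 in watered males. No library of one sex reached the other, and the log2 difference was -2.02 ± 0.13 (SE, limma adjusted p = 7.82e-13). For Abcb1a these values were 380, 412 and 449 in watered females and 118, 148 and 176 in watered males, with a log2 difference of -1.51 ± 0.13 (SE, limma adjusted p = 1.06e-09). The ratio of the Abcb1b to the Abcb1a count had a median of 1.93 in watered females and 1.40 in watered males, with ranges of 1.67 to 2.09 and 0.956 to 1.63 that did not overlap.

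These neighbours lie on the plus strand of chromosome 5, Abcb1a at chr5:8660077-8748575 and Abcb1b at chr5:8798147-8866315, with 49571 bases between them. Their longest coding transcripts share 768 stretches of 50 bases, so that 17.0% of such stretches of Abcb1a and 18.3% of those of Abcb1b also occur in another gene, and the split of reads between them is uncertain. Summed as 1 gene they had a log2 difference of -1.82 between the sexes (limma adjusted p = 9.77e-13). Exons of Gm42686 overlap those of Abcb1a, and exons of Gm5106 those of Abcb1b, each on the opposite strand, and whether counting used strand is not given in the sources used here.

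Abcc4, the MRP4 pump of cyclic nucleotides, urate and antiviral drugs, was also lower in males. Its normalized count had a lowest, median and highest value of 2555, 2886 and 3192 in watered females and 963, 1099 and 1242 in watered males. The sexes did not overlap, and the log2 difference was -1.39 ± 0.11 (SE, limma adjusted p = 2.04e-10), 2.62-fold lower. The gene lies at chr14:118482692-118706219 on the minus strand.

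Abcc1, the MRP1 exporter of glutathione conjugates such as leukotriene C4, differed by less. Its normalized count had a lowest, median and highest value of 683, 897 and 913 in watered females and 563, 660 and 700 in watered males. The sexes overlapped through watered female 6 alone, 1 of the high-ENSMUSG00000119584 libraries, since the next female library stood at 862. The log2 difference was -0.40 ± 0.11 (SE, limma adjusted p = 0.0086). Abcc1 lies at chr16:14361558-14475737 on the plus strand.

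The apical pumps Abcc2 and Abcg2 were higher in males. Abcc2, the MRP2 exporter of conjugated anions, had a lowest, median and highest normalized count of 5386, 7133 and 7639 in watered females and 10200.4, 10975 and 11342 in watered males. The ranges stood well apart, with a log2 difference of 0.69 ± 0.16 (SE, limma adjusted p = 0.0013), 1.61-fold higher. Abcg2, the BCRP exporter of urate and of many drugs, had 6442, 6853 and 7355 in watered females and 7909, 8854 and 9378 in watered males. Its groups did not overlap either, and its log2 difference of 0.35 ± 0.06 (SE, limma adjusted p = 1.54e-05) had the smallest error of the 9. Abcc2 lies at chr19:43782192-43840740 and Abcg2 at chr6:58584523-58695676, both on the plus strand.

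The call of Abcc2 was lost when the balance of proximal tubule and thick ascending limb markers was a covariate, with a log2 difference of 0.21 (limma adjusted p = 0.31). That marker list holds Slc34a1, Slc22a6 and Slc22a8, which differ between the sexes themselves. Summed markers of the proximal tubule segments S1 and S2 ran from 188994 to 211508 normalized counts in watered females and from 220028 to 263541 in watered males. The gap between these sums largely follows Slc34a1, with means of 94135 in watered females and 139933 in watered males. Of the 6 markers 2 were higher in watered males, 1 was lower and 3 were not called, with a median log2 difference of -0.05. The part of these markers in the result was not tested.

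Abcc5 and Abcc6 did not pass the test between the watered sexes. Abcc5 had a lowest, median and highest normalized count of 1072, 1446 and 1507 in watered females and 1286, 1448 and 1498 in watered males. These medians nearly coincided, and the log2 difference was 0.04 with a 95% interval from -0.19 to 0.27 (limma adjusted p = 0.82). Abcc6, the MRP6 protein whose human gene is mutated in pseudoxanthoma elasticum, had 349, 404 and 412 in watered females and 344, 462 and 522 in watered males. Its groups overlapped, with a log2 difference of 0.17 and an interval from -0.05 to 0.39 (limma adjusted p = 0.25). Both genes are on minus strands, Abcc5 at chr16:20331303-20426394 and Abcc6 at chr7:45967555-46030302.

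**Figure D2:**
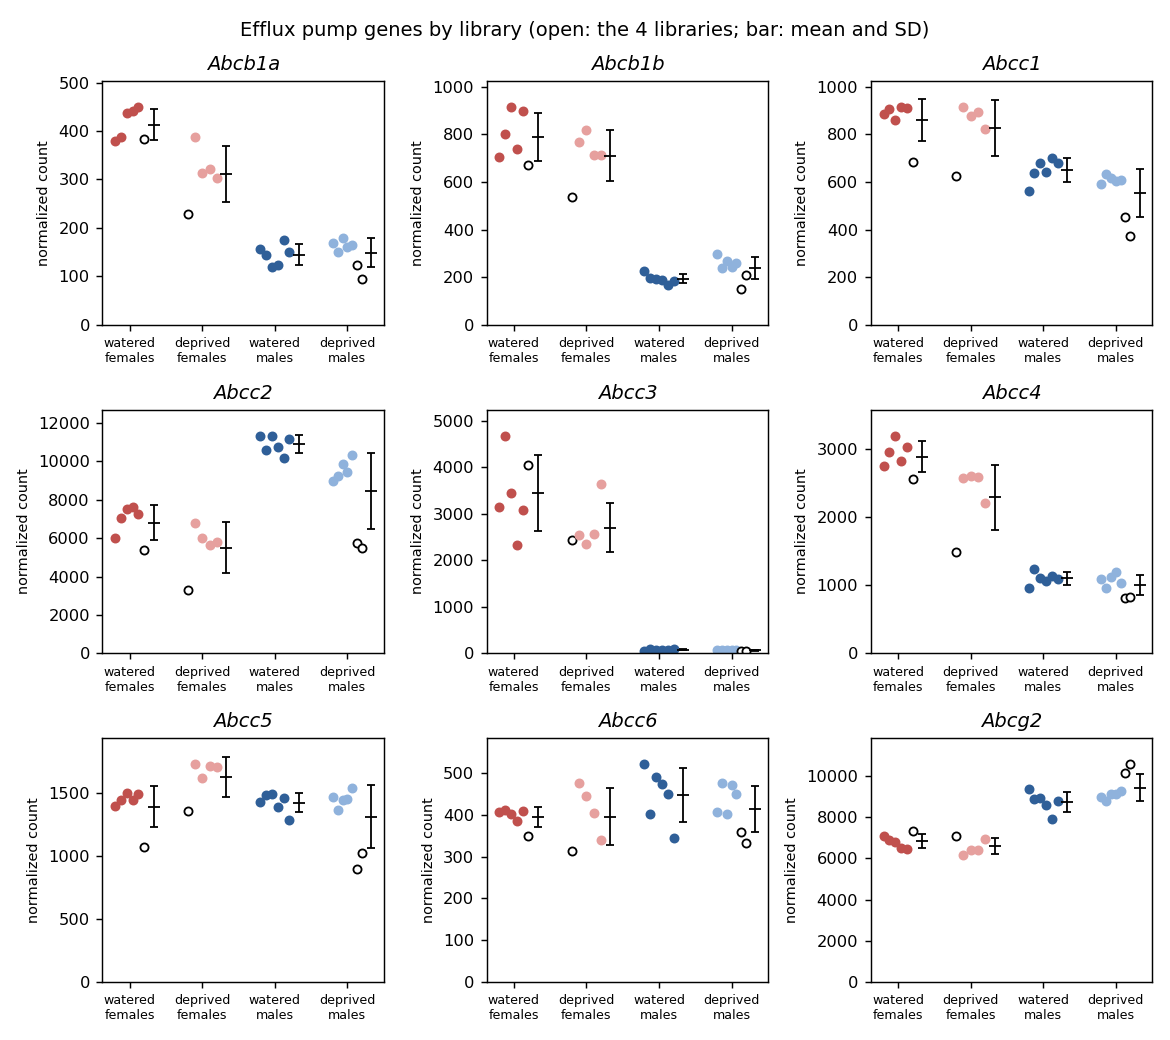
Normalized count of each pump gene in every library, in the order of the library numbers within each group, with open circles for the 4 high-ENSMUSG00000119584 libraries and bars for mean and SD. Watered males lie below watered females for Abcb1a, Abcb1b, Abcc3 and Abcc4 and above them for Abcc2 and Abcg2.

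Deprived males and deprived females, which share no library with the watered groups, gave the same sign for 8 of the 9 genes, though the spread of each gene is estimated over all 4 groups. In these mice 8 of 9 genes passed the test, 2 higher and 6 lower in males, where 33.1% of all genes tested did, 17.5% higher and 15.6% lower. With edgeR and DESeq2 8 of 9 passed as well, where 33.8% and 31.9% of all genes did. Groups did not overlap for Abcb1a, Abcb1b, Abcc3, Abcc4 and Abcg2, 5 of the 9, against 15.5% of all genes tested. Abcc3 had a log2 difference of -5.33 ± 0.15, Abcb1b of -1.58 ± 0.13, Abcc4 of -1.17 ± 0.11, Abcb1a of -1.07 ± 0.14 and Abcc1 of -0.59 ± 0.12 (SE, largest limma adjusted p = 0.00028). Abcc2 and Abcg2 were higher in deprived males, by 0.62 ± 0.16 and 0.52 ± 0.06 (SE, limma adjusted p = 0.0037 and 5.08e-08). With the marker covariate Abcc2 again lost its call, at 0.09 (limma adjusted p = 0.68).

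Abcc5 was called between the deprived sexes, and its values were 1356, 1734, 1622, 1720 and 1710 normalized counts in deprived females 1 to 5. In deprived males the lowest, median and highest were 899, 1444 and 1542. Females were higher in 4 of 5 libraries than every male library, and the exception was deprived female 1. The log2 difference was -0.33 ± 0.11 (SE, limma adjusted p = 0.025), and it passed in 19 of the 24 fits made without 1 library each; the limma adjusted p was 0.051 to 0.064 without deprived female 2, 4 or 5 or deprived male 6 or 7. With the deprived groups fitted alone its limma adjusted p was 0.087, with deprived female 5 counted as watered it was 0.062, and without the 4 high-ENSMUSG00000119584 libraries the difference was -0.22 (limma adjusted p = 0.00027). For Abcc6 the log2 difference was 0.07 with a 95% interval from -0.15 to 0.30 (limma adjusted p = 0.65).

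**Figure D3:**
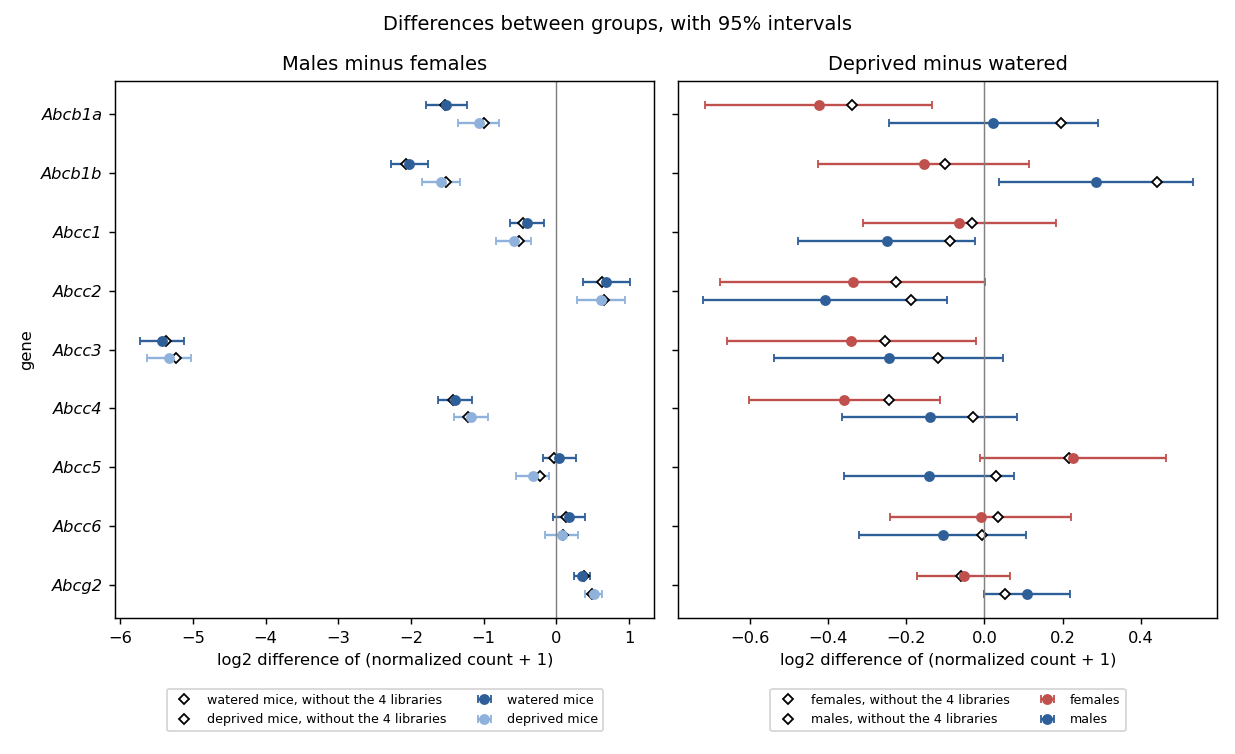
Log2 difference of each pump gene between the sexes (left) and between deprived and watered mice (right), with 95% intervals from limma over all 24 libraries, and open diamonds for the estimate without the 4 high-ENSMUSG00000119584 libraries. Differences between the sexes run from -5.43 to 0.69, whereas those with deprivation lie between -0.42 and 0.29.

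With water deprivation the log2 differences of the pump genes ran from -0.42 to 0.29 within a sex, against -5.43 to 0.69 between the watered sexes. The order did not hold for each gene, since Abcc5 had 0.04 between the watered sexes, 0.23 with deprivation in females and -0.14 in males. In females 0 of 9 genes passed the test, where 0.79% of all genes tested did; 3 had an unadjusted p below 0.05, Abcb1a, Abcc3 and Abcc4. With edgeR and DESeq2 0 of 9 passed, where 0.978% and 2.16% of all genes did. No gene had groups that did not overlap, against 2.48% of all genes tested. The log2 difference was negative for 8 of the 9 genes, with a median of -0.16, and the median of all genes was -0.02.

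The 2 lowest estimates in females were those of Abcb1a and Abcc4. Abcb1a stood at 228, 389, 313, 322 and 304 normalized counts in deprived females 1 to 5, against a lowest, median and highest of 380, 412 and 449 in watered females. Only deprived female 2 reached the watered range, and the log2 difference was -0.42 ± 0.14 (SE, limma adjusted p = 0.21). Abcc4 stood at 1490, 2577, 2602, 2579 and 2203 in deprived females 1 to 5, against 2555, 2886 and 3192 in watered females. Deprived females 2, 3 and 4 exceeded the lowest watered library, and the log2 difference was -0.36 ± 0.12 (SE, limma adjusted p = 0.21).

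Abcc2 stood at 3279, 6808, 5982, 5661 and 5781 normalized counts in deprived females 1 to 5, against 5386, 7133 and 7639 in watered females. Deprived female 1 was far below the rest, and the log2 difference was -0.34 with a 95% interval from -0.68 to 0.00 (limma adjusted p = 0.52). Abcc3 stood at 2428, 2538, 2350, 2558 and 3630, against 2334, 3300 and 4679, with a log2 difference of -0.34 ± 0.15 (SE, limma adjusted p = 0.47). The groups overlapped widely, and deprived female 5, whose labels disagree, was the highest deprived library. Abcc5 was the 1 gene with a positive estimate, 0.23 with an interval from -0.01 to 0.46 (limma adjusted p = 0.55).

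Abcb1b, Abcc1, Abcc6 and Abcg2 had estimates closer to 0 in females. Their log2 differences were -0.16 ± 0.13, -0.06 ± 0.12, -0.01 ± 0.11 and -0.05 ± 0.06 (SE, smallest limma adjusted p = 0.83). For Abcg2 the 95% interval ran from -0.17 to 0.07, the narrowest of the 9 genes.

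Some markers of other cell types differed between deprived and watered females, where 0.79% of all genes tested passed. Of 5 stroma markers Col1a2 and Col3a1 were higher, by log2 differences of 0.49 and 0.65 (limma adjusted p = 0.014 each), and the summed stroma level ran from 3637 to 4967 normalized counts in watered and from 4906 to 6389 in deprived females. Of 6 endothelial markers 0 passed, with log2 differences from 0.15 to 0.27. Their summed level, which was not tested, ran from 9643 to 10896 in watered and from 11462 to 12795 in deprived females. Of 6 markers of the proximal tubule segments S1 and S2, Slc22a6 and Slc22a8 were lower, and the sums were 188994 to 211508 in watered and 147154 to 202294 in deprived females. The lowest sum was that of deprived female 1, a high-ENSMUSG00000119584 library, and the next deprived female stood at 182876. Of 5 collecting duct markers the water channels Aqp2 and Aqp3 were higher, by 0.74 and 0.42, and Hsd11b2 had -0.28 (largest limma adjusted p = 0.044). In males Aqp2 and Aqp3 were the called markers, higher by 0.92 and 0.67 (largest limma adjusted p = 5.23e-05), where 0.227% of all genes tested passed. The part of these markers in the deprivation results of the pump genes was not tested.

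Without the 4 high-ENSMUSG00000119584 libraries, 4 of 9 genes passed in females, where 4.43% of all genes tested did. Abcc5 was higher by 0.22 ± 0.05 (SE, limma adjusted p = 0.0065), with 1622 to 1734 normalized counts in 4 deprived and 1402 to 1507 in 5 watered females, which do not overlap. Abcc2, Abcc4 and Abcb1a were lower, with log2 differences of -0.23 ± 0.06, -0.24 ± 0.07 and -0.34 ± 0.10 (SE, limma adjusted p = 0.025, 0.034 and 0.049). With weights per library in place of leaving any out, Abcb1a, Abcc4 and Abcc5 passed, 3 of 9, where 5.7% of all genes did. Without the 4 libraries the estimates moved toward 0 for the genes that were lower, and the errors were smaller: for Abcc2 the SE was 0.06 in place of 0.16. The SD of Abcc5 in watered females fell from 163 to 43.1 normalized counts without watered female 6.

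In males 0 of 9 genes passed the test, where 0.227% of all genes tested did; 3 had an unadjusted p below 0.05, Abcb1b, Abcc1 and Abcc2. With edgeR and DESeq2 0 of 9 passed, where 0.193% and 0.805% of all genes did. No gene had groups that did not overlap, against 0.529% of all genes tested. The median log2 difference of the 9 genes was -0.14, and that of all genes 0.00.

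Abcb1b had the largest positive estimate in males. Its normalized count had a lowest, median and highest value of 152, 242 and 298 in deprived males and 168, 191 and 227 in watered males. Deprived males 1 to 5 were all above the watered range, at 298, 240, 268, 242 and 261, while deprived male 6 was below it and deprived male 7, at 210, within it. The log2 difference was 0.29 ± 0.12 over all libraries (SE, limma adjusted p = 0.36). Without the 4 libraries it was 0.44 ± 0.08 (SE, limma adjusted p = 0.0022), the only one of 9 genes to pass, where 0.817% of all genes tested did. With weights per library Abcb1b was again the 1 gene that passed, where 0.756% of all genes did.

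Abcc2 had a lowest, median and highest normalized count of 5473, 9239 and 10310.4 in deprived males, against 10200.4, 10975 and 11342 in watered males. Deprived males 6 and 7 were lowest, at 5732 and 5473, and of the others only deprived male 5 reached the watered range. The log2 difference was -0.41 ± 0.15 over all libraries (SE, limma adjusted p = 0.30) and -0.19 ± 0.05 without the 4 (SE, limma adjusted p = 0.095). Abcc1 had a log2 difference of -0.25 ± 0.11 (SE, limma adjusted p = 0.39) and of -0.09 without the 4 (limma adjusted p = 0.48).

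The remaining 6 genes in males had log2 differences from -0.24 for Abcc3 to 0.11 for Abcg2 (smallest limma adjusted p = 0.43, of Abcg2). Abcc4 had -0.14 with a 95% interval from -0.36 to 0.08, Abcc5 -0.14 from -0.36 to 0.08 and Abcc6 -0.11 from -0.32 to 0.11. Abcb1a, at 0.02 with an interval from -0.24 to 0.29, had the estimate nearest to 0.

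Averaged over both sexes, 0 of 9 genes passed, where 1.64% of all genes tested did; 4 had an unadjusted p below 0.05, Abcb1a, Abcc2, Abcc3 and Abcc4. With edgeR and DESeq2 0 of 9 passed, where 1.67% and 3.26% of all genes did. Abcc2 had the smallest p, with a log2 difference of -0.37 ± 0.11 (SE, limma adjusted p = 0.098). Without the 4 libraries Abcc2 was lower by a called -0.21 ± 0.04 and Abcc5 higher by 0.12 ± 0.03 (SE, limma adjusted p = 0.0017 and 0.015), where 7.18% of all genes tested passed. With weights per library Abcc2 alone passed, at -0.23 (limma adjusted p = 0.019), where 6.62% of all genes did.

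Whether the sexes differ in their response was tested as the male minus the female response. Of the 9 genes 0 passed, where 0% of all genes tested did; Abcb1a, Abcb1b and Abcc5 had an unadjusted p below 0.05. With edgeR and DESeq2 0 of 9 passed, where 0% and 0.147% of all genes did. Their log2 differences of responses were 0.45 ± 0.19, 0.44 ± 0.18 and -0.37 ± 0.16 (SE, limma adjusted p = 0.63, 0.60 and 0.63). The estimate in females was negative for both P-glycoprotein genes and that in males positive, but the difference itself did not pass. Without the 4 libraries the limma adjusted p of Abcb1b was 0.067, at 0.54 ± 0.11 (SE).

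The 4 high-ENSMUSG00000119584 libraries were placed against the other libraries of their groups. Watered female 6 was below all of them for 6 of 9 genes, deprived female 1 for 7, and deprived males 6 and 7 for 8 each. In each of the 4 the gene above all of them was Abcg2, at 108%, 110%, 112% and 116% of the median of the others. Abcc2 was below all the others in each of the 4, at 74.4%, 55.8%, 60.7% and 57.9% of that median. Libraries outside the 4 could also stand low. Watered female 1, deprived female 5 and deprived male 2, placed in the same way, were each below the others for 5 genes. The share of all genes placed so was not counted. In deprived males 6 and 7 the podocyte marker sums were 5303 and 5016, against 6899 to 7426 in the other deprived males. Their endothelial sums lay within the range of the others. The part of the 4 libraries' RNA composition in the deprivation results was not tested, beyond leaving them out.

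Correlations between the log2 levels of the 9 genes, with group means removed, are given as a description with no test. Of 36 pairs of genes 27 had a positive Pearson r over 24 libraries, with a median of 0.57, and r of Abcc1 with Abcc2 was 0.88. The share among pairs of other genes was not counted. Abcg2 ran against the rest, with an r of -0.85 to Abcc1 and -0.76 to Abcb1a. The r of Abcc3 with the other genes lay between -0.15 and 0.33. Without the 4 libraries 20 of 36 pairs were positive, the median was 0.07 and the r of Abcc1 with Abcc2 was 0.04. In those 20 libraries Abcg2 had an r of -0.72 to Abcc1 and -0.48 to Abcb1a, but of 0.21 to Abcb1b and 0.20 to Abcc3. Its r to Abcc4, Abcc6, Abcc2 and Abcc5 was -0.35, -0.17, -0.13 and -0.04.

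**Figure D4:**
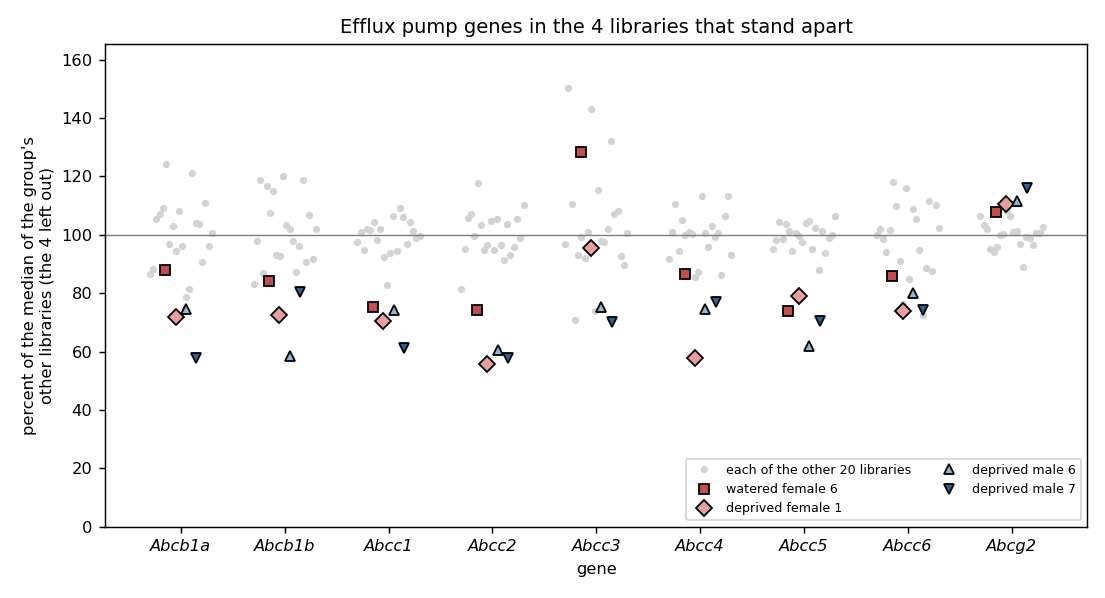
Each of the 4 high-ENSMUSG00000119584 libraries (coloured symbols) as a percentage of the median of the other libraries of its group, for each pump gene, with the other 20 libraries in grey, each against the rest of its group in the same way; the 4 enter no median. Abcg2 lies above 100% in all 4 and Abcc2 lies between 55.8% and 74.4%.

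The genes whose log2 levels were most like each pump gene over the 24 libraries, among 12045 genes with a mean of at least 50, were named by Pearson r alone; the points share library and group. Abcc3 was closest to Gbp3, Aadat and Oat (Pearson r of 0.99 each), with an r of 0.42, 0.15 and 0.22 once group means were removed. Abcb1b was closest to Slc7a12, Shmt1 and Ugt1a10, and Abcb1a to Abcc4 (0.97), Slc6a18 and Tenm4. Abcc4 was closest to Spns2, Ceacam1 and Elovl6, and Abcg2 to Ugt3a2, Dao and Tmbim6 (0.98 each). For Abcb1a, Abcb1b, Abcc4 and Abcg2 the r with these genes lay between 0.41 and 0.87 once group means were removed. With the 4 libraries left out as well it lay between -0.00053 and 0.77, and that of Abcb1a with Abcc4 was 0.25. The closest to Abcc2 were Aim1, March6 and Ogdh, to Abcc1 Myof, Hk1 and Slc4a9, to Abcc5 Clk3, Zmynd8 and Unc13b, and to Abcc6 Ap1b1, Shc1 and Pip5k1c. The r of Abcc2, Abcc1, Abcc5 and Abcc6 with their 3 nearest genes lay between 0.81 and 0.95 once group means were removed. It lay between 0.15 and 0.80 when the 4 libraries were left out as well.

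Slc47a1, the MATE1 proton exchanger that exports organic cations across the brush border, was higher in males as Abcc2 and Abcg2 were. Its normalized count was 11988 ± 516 in watered females and 18484 ± 1016 in watered males (SD, n = 6 each), a log2 difference of 0.62 ± 0.07 (SE, limma adjusted p = 6.06e-08). With deprivation its log2 difference was -0.16 in females and -0.07 in males (limma adjusted p = 0.48 and 0.62).

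Of 13 other transporters that work with the pumps in tubular secretion and urate handling, Slc47a1 among them, 7 were higher and 2 lower in watered males, where 15.9% of all genes tested were higher and 14.5% lower. The uptake carriers Slco4c1, Slc22a6 (OAT1) and Slc22a2 (OCT2) were higher by log2 differences of 1.92, 1.24 and 0.99, and Slc22a8 (OAT3) had -0.67 (largest limma adjusted p = 1.32e-09). Their median log2 difference was 0.62. In deprived females 3 were lower, with log2 differences of -0.46 for Slc22a6, -0.48 for the urate carrier Slc2a9 and -0.28 for Slc22a8 (limma adjusted p = 0.011, 0.019 and 0.028), where 0.79% of all genes passed. In deprived males 0 of 13 passed, where 0.227% of all genes did.

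Of 14 tested regulators that bind or control pump genes, 5 were higher and 3 lower in watered males, against the same 15.9% and 14.5% of all genes, 30.5% in all. The oestrogen receptor Esr1 and the nuclear receptor partner Rxra were higher by 1.24 and 0.53, the NRF2 inhibitor Keap1 by 0.31, and the xenobiotic receptor PXR (Nr1i2) had -0.92 on the log2 scale (largest limma adjusted p = 3.32e-05). With deprivation 0 of 14 passed in either sex. Of 9 target genes of NRF2 and AHR, 5 were higher in watered males and 0 lower, again beside 15.9% and 14.5% of all genes, among them haem oxygenase Hmox1 (1.29) and the glutathione synthesis subunit Gclm (0.44; limma adjusted p = 6.26e-08 and 3.19e-06). In deprived females the quinone reductase Nqo1 changed by -0.50 (limma adjusted p = 0.015), 1 of the 9, where 0.79% of all genes passed.

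Of 36 other ABC transporters tested, 9 were higher and 4 lower in watered males, with a median of 0.07. That share is near the 30.5% of all genes tested that passed. The KATP channel subunit Abcc9 (SUR2) was higher by 0.91, and the retinoid transporter Abca4 had -0.77 on the log2 scale (largest limma adjusted p = 4.47e-05). In females the sterol exporter Abcg1 rose with deprivation by 0.59, and the peroxisomal importer Abcd3 changed by -0.33 (limma adjusted p = 0.0040 and 0.014), 2 of 36, where 0.79% of all genes passed. Of 6 apical scaffold genes, Slc9a3r1 (NHERF1) and radixin (Rdx) were each 0.29 higher in watered males (largest limma adjusted p = 0.00014), 2 of 6 beside 30.5% of all genes, and 0 passed with deprivation in either sex alone.

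Markers of other kidney cells also moved with sex. All 5 podocyte markers were lower in watered males, with summed levels of 6631 to 7381 normalized counts against 8125 to 9391 in watered females. Of the 5 markers of proximal tubule segment S3, 3 were higher and 2 lower, with Slc7a13 at 8.07 and Aadat at -2.46 on the log2 scale (largest limma adjusted p = 9.39e-20). Of the other lists, 3 of 5 collecting duct and 3 of 6 endothelial markers were lower in watered males, with none higher. So were 2 of 5 intercalated cell and 2 of 5 thick ascending limb markers, again with none higher, while 0 of 5 stroma markers passed. Of all genes tested 30.5% passed, 15.9% higher and 14.5% lower. Lists of 5 or 6 genes allow only a coarse comparison with these shares. The part of cell composition in the differences of the pump genes was not tested beyond the covariate above.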

How the data were processed

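The deposited values are a linear signal, gene counts divided by 1 size factor per library, in 1 table. Per the submitters' processing notes the tools were Trim Galore, featureCounts of Subread and DESeq2 with the mm10 build. Neither the aligner nor the annotation nor the use of strand is given in the sources used here. Within 0.01 read, 100% of the values were whole multiples of 1 step per library, so that reads could be recovered for the count models. The labels give 1 library per title, and p-values measure the spread between these libraries.

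The main test was limma 3.58.1 (R 4.3.3) on log2(value + 1), with a pseudocount of 1, a trended and robust prior variance, and 1 fit of 24 libraries with a coefficient per group. Fold changes are on this scale, on which low genes appear to change less than they do. Tests covered the 17592 genes that reached 10 in 5 or more libraries, leaving out 1807, with Benjamini-Hochberg adjustment over them and calls below 0.05. The script was tested on simulated data. Alternatives were edgeR 4.0.16 and DESeq2 1.42.0 on recovered reads, TMM scaling, other pseudocounts (0.5 and 5), other filters (none, or a value of 50), the contrast's groups alone, the replicate number as a block, weights per library, leaving out the 4 high-ENSMUSG00000119584 libraries or each library in turn, deprived female 5 as watered, a tubule marker covariate, and the P-glycoprotein genes summed. Levels per kb used merged exons of GENCODE M21 (GRCm38), in which 19298 gene identifiers matched; coordinates are 1-based.

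The members and lists were chosen with earlier results of these data known. Named genes are the 9 members, Slc47a1, up to 4 called genes of each list with the smallest p, and the 3 genes with the highest r to each member; a gene that this rule takes is not reported here. Slc34a1, Lrp2, Slc7a13 and Aadat were also named among the markers, the last 2 after their values were seen.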

Additional observations from a re-analysis of the deposited data

Results flagged for a closer look

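Of 36 combinations of a pump gene and a group, 3 held a library far from the others, and chance gives about 1 in 20. Abcc1 stood at 683 normalized counts in watered female 6, the lowest of 6, with the next library at 862. Abcc5 stood at 1072 in the same library, with the next at 1402. Abcc3 stood at 3630 in deprived female 5, the highest of 5, with the next at 2558. Watered female 6 is 1 of the 4 high-ENSMUSG00000119584 libraries, and the labels of deprived female 5 disagree.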

How the results depend on the processing

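The counts of called genes between the sexes were 7 of 9 in watered mice in all 24 fits that left out 1 library and 7 or 8 in deprived mice, and those for deprivation were 0 in all such fits. The deprivation counts moved under 3 settings. Without the 4 libraries they were 4 in females, 1 in males and 2 on average. With weights per library they were 3, 1 and 1. Libraries with the same title number had correlations from -0.17 to 0.17. For deprived females these cannot decide whether mice were paired, since the titles and the deposited column names number some of them differently. In the other groups both numberings are the same, and correlations ran from -0.08 to 0.14 between watered and deprived males. Between watered females and watered males they ran from -0.03 to 0.06. Whether the numbers stand for pairs was not tested. With the replicate number of the titles as a block the average count was 1, and this changed no other count.

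Signs of estimates that passed in no setting changed in these cases. Abcc6 in females had 0.0041 with edgeR, 0.0074 with DESeq2, 0.045 with weights, 0.035 without the 4 libraries, 0.071 with deprived female 5 as watered and 0.084 with the marker covariate, and -0.081 to 0.069 when 1 library was left out. Abcc6 averaged had 0.010 with weights, 0.014 without the 4 and 0.027 with the covariate. Abcc6 between the sexes had -0.013 in watered and -0.13 in deprived mice with the covariate, and -0.0048 to 0.15 in deprived mice when 1 library was left out. Abcc6 in the male minus female response had 0.0063 with the block. Abcc5 between watered sexes had -0.0050 with weights, -0.033 without the 4, -0.0026 with deprived female 5 as watered, -0.23 with the covariate and -0.033 to 0.070 when 1 library was left out. Abcc5 in males had 0.029 without the 4. Abcg2 averaged had -0.0079 with weights and -0.0028 without the 4. Abcc2 in the male minus female response had 0.087 with the block, 0.038 without the 4 and -0.25 to 0.026 when 1 library was left out. With the covariate, Abcb1b and Abcc1 in females had 0.018 and 0.074, and Abcc1 had -0.13 to 0.034 when 1 library was left out. Abcb1b averaged had -0.032 summed with its paralog, and Abcb1a in males -0.03 to 0.13 when 1 library was left out. The cause of these changes was not tested. With 5 to 7 libraries per group, the widest 95% intervals for deprivation, those of Abcc2, spanned over 0.6 on the log2 scale.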
